A study of Mus musculus with 8 samples.

Results

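Aldh3a1, Tkt, Aldh1a1, Gsta4, Clu, Cryab, Hspb1, Gpx3, Cat and Nqo1 are the genes of the corneal crystallin enzymes, of 3 stress chaperones and of 3 antioxidant enzymes. Their rows were taken by gene symbol, and all 10 of 10 were found, each at a single locus, among the 24918 gene rows of the series. RNA of whole corneas was sequenced from male C57BL/6J mice, wild type and adrenalectomized at 8 weeks of age, so that mice of both groups lacked their adrenal source of glucocorticoids. About 4 weeks after surgery their eyes were treated for 6 h with drops of the synthetic glucocorticoid dexamethasone or of vehicle. Each group holds 4 libraries, each from a pool of 4 to 6 corneas; the labels do not say how many mice gave each pool, which eye was taken or the dose. The question put by the design is what a glucocorticoid given to the eye does to corneal gene expression.

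A clear cornea depends on a few soluble proteins that its cells make in very large amounts, and several of these are metabolic enzymes, called corneal crystallins by analogy with the lens. ALDH3A1 is the main one in the mouse: it absorbs ultraviolet light and oxidizes the aldehydes that lipid peroxidation forms, and transketolase, ALDH1A1 and glutathione transferases are other abundant members of this class. Clusterin and the small heat shock proteins hold unfolding proteins in solution, and catalase, glutathione peroxidases and NQO1 remove peroxides and quinones at a surface that receives light and oxygen.

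All values are log2 normalized values from the authors' deposited table, and a difference is dexamethasone minus vehicle on that scale. Calls rest on limma, a moderated linear model, fitted to all 14715 rows with a mean of at least 3, with Benjamini-Hochberg adjustment and a threshold of 0.05. The values behave as shrunken logarithms, so fold changes are understated, and the read total of single libraries is unknown beyond the labels' statement of more than 40000000 reads per sample. The marker of corneal epithelium Krt12 lay between 19.68 and 19.79 after dexamethasone and between 19.73 and 19.77 after vehicle, and the stromal marker Kera and the endothelial marker Slc4a11, each at least 12.57 in every library, fell by 0.14 and 0.21 (limma, adjusted p = 0.0241 and 0.00641). The glucocorticoid target Fkbp5 rose by 0.88 (SE 0.05, adjusted p = 3.43e-06, limma), with no overlap between the groups. Dexamethasone replicate 1 and vehicle replicate 3 stood apart on the second principal component of all rows (23.3% of the variance), and results are therefore also given without both. In whole tissue, fewer cells of a type and less RNA per cell cannot be told apart.

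Of the 10 genes, all 10 passed the filter on low values, 3 rose and none fell. Clu, Hspb1 and Cat rose by 0.19 to 0.33, whereas the most abundant crystallin enzymes, Aldh3a1, Tkt and Gsta4, did not pass the test. The background was 15.1% of all tested rows called, with 9.04% higher and 6.03% lower. Without adjustment (limma, p below 0.05) 5 were higher and 0 were lower. The median difference was 0.14 over the 10 genes and -0.003 over all tested rows. The same 3 genes were those whose 4 dexamethasone libraries all lay above their 4 vehicle libraries, a pattern seen in 11.6% of tested rows, with 9.11% separate in the lower direction and 20.7% in either. The number called was 5 without vehicle replicate 2, with Aldh1a1 and Cryab added, and 4 without both libraries that stood apart, with Aldh1a1 added.

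**Figure D1:**
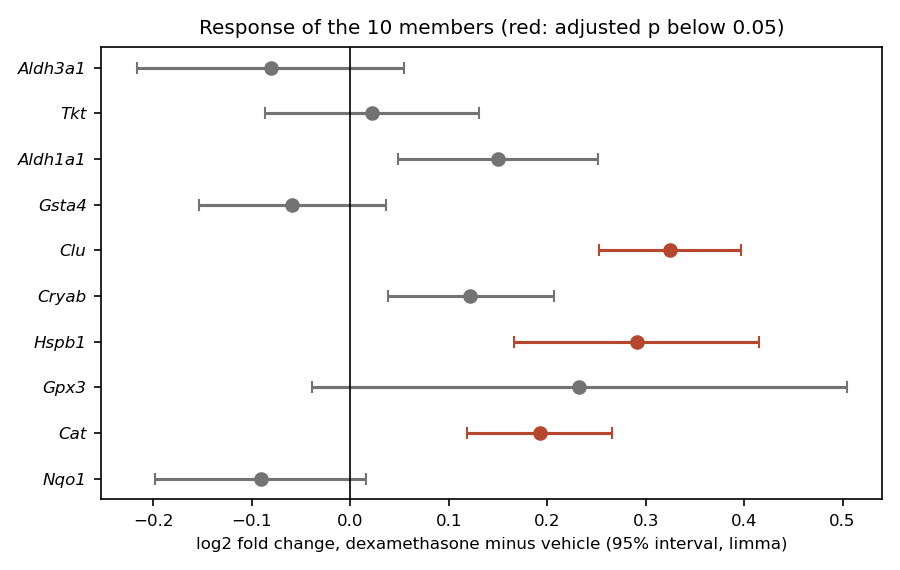
Log2 fold change, dexamethasone minus vehicle, of the 10 genes with its 95% interval from limma (points and bars; red, adjusted p below 0.05; grey, not called). The intervals of Clu, Hspb1 and Cat lie furthest from 0, those of Aldh1a1 and Cryab lie above 0 without passing the adjusted threshold, and the other 5 include 0.

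The level of the genes was compared per length, as the log2 normalized value minus the log2 length in kb of the union of exons in GENCODE vM1, over 13512 rows with a matched gene model. Aldh3a1 was second of all these rows, at 17.69 ± 0.12 after dexamethasone and 17.77 ± 0.05 after vehicle (SD, n = 4 each). Its share of the summed length-scaled values was 2.69% to 3.09% after dexamethasone and 3.01% to 3.25% after vehicle. Gsta4 ranked 9, Tkt 24, Hspb1 103, Aldh1a1 123, Clu 172 and Cryab 468. Nqo1 ranked 2359, Cat 2616 and Gpx3 7361.

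The antioxidant enzymes thus stood far below the crystallin enzymes per length: Cat was at 9.04 ± 0.02 after dexamethasone and 8.84 ± 0.06 after vehicle, and Gpx3 at 7.03 ± 0.22 and 6.80 ± 0.25 (SD, n = 4 each). Neighbours in this order were separate in both groups in the sense that their ranges did not overlap, except Nqo1 and Cat, which overlapped after dexamethasone (difference 0.01) and not after vehicle (0.30). With the longest transcript in place of the union of exons, Tkt stood above Gsta4, at rank 8 against 12, and Clu above Hspb1 and Aldh1a1, at rank 92.

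**Figure D2:**
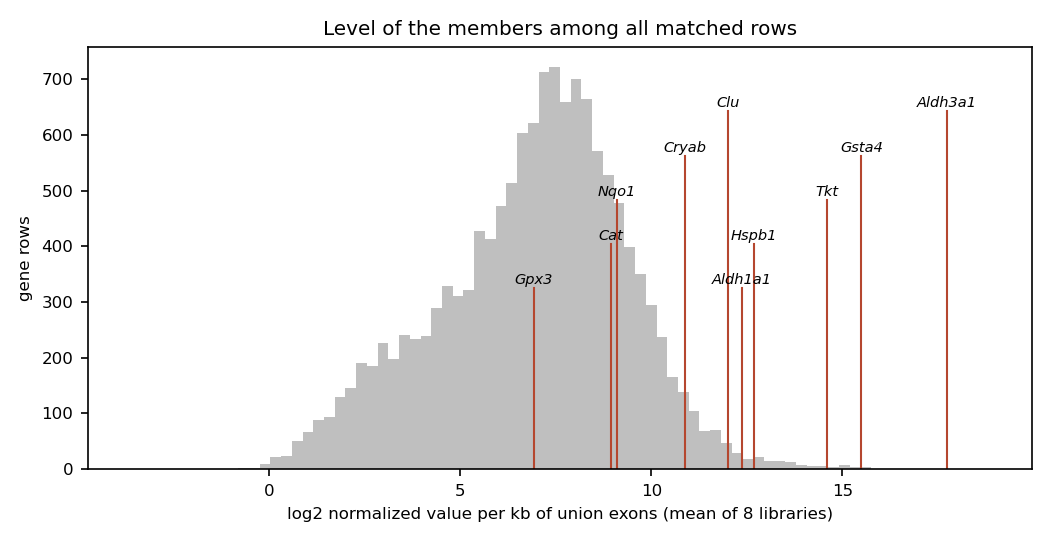
Histogram of the log2 normalized value per kb of union exons, averaged over the 8 libraries, for the 13512 matched rows (grey), with the 10 genes marked by red lines. Aldh3a1 lies at the far right end, second of all rows, Gsta4 and Tkt follow, and Gpx3 lies inside the bulk of the rows at rank 7361.

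Among the crystallin enzymes, Aldh3a1 (Entrez 11670; mm9 chromosome 11, 61021039 to 61031923, plus strand), the aldehyde dehydrogenase that dominates the soluble protein of the mouse cornea, had log2 values of 18.61, 18.75, 18.73 and 18.50 in dexamethasone replicates 1 to 4, against 18.67, 18.79, 18.74 and 18.73 in vehicle replicates 1 to 4. Dexamethasone replicates 1 and 4 were the lowest of all 8, and the other pair lay within the vehicle range. The difference of -0.08 (SE 0.06, 95% interval -0.22 to 0.06) did not pass the test (adjusted p = 0.421, limma), and its sign turned to 0.06 under quantile normalization (adjusted p = 0.267, limma), so these values give no direction.

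Tkt (Entrez 21881; chromosome 14, 31361545 to 31387908, plus strand) encodes transketolase, which moves carbon between sugar phosphates in the nonoxidative pentose phosphate pathway. It had 17.24, 17.38, 17.42 and 17.26 in the dexamethasone libraries, against 17.27, 17.37, 17.28 and 17.29 in the vehicle libraries. The vehicle values lay inside the range of the dexamethasone values. The difference of 0.02 (SE 0.05, 95% interval -0.09 to 0.13) did not pass (adjusted p = 0.814, limma), and it was -0.06 under quantile normalization and -0.01 without dexamethasone replicate 3.

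Gsta4 (Entrez 14860; chromosome 9, 78039773 to 78057155, plus strand) encodes the glutathione transferase that conjugates 4-hydroxynonenal, an aldehyde of lipid peroxidation. Its values were 15.36, 15.48, 15.48 and 15.30 after dexamethasone, against 15.44, 15.48, 15.47 and 15.46 after vehicle. As with Aldh3a1, dexamethasone replicates 1 and 4 were below all vehicle libraries. The difference of -0.06 (SE 0.04, 95% interval -0.15 to 0.04) did not pass (adjusted p = 0.395, limma).

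The epithelial keratin gene Krt12 had the same low libraries: 19.68 and 19.69 in dexamethasone replicates 1 and 4, against 19.79 and 19.77 in dexamethasone replicates 2 and 3. The log2 value of Aldh3a1 minus that of Krt12 in the same library, not scaled by length, was -1.07, -1.04, -1.04 and -1.19 in dexamethasone replicates 1 to 4, against -1.07, -0.95, -1.03 and -1.01 in vehicle replicates 1 to 4. The range over the 4 dexamethasone libraries was then 0.15 in place of 0.25 for Aldh3a1, 0.09 in place of 0.18 for Gsta4 and 0.09 in place of 0.18 for Tkt. It was also narrower for Nqo1 (0.13 in place of 0.23), Clu (0.09 in place of 0.11) and Gpx3 (0.40 in place of 0.44). It was wider for Cat (0.13 in place of 0.04), Hspb1 (0.32 in place of 0.29), Aldh1a1 (0.13 in place of 0.11) and Cryab (0.15 in place of 0.14). On this scale, used without a test, Gsta4 was lower in all 4 dexamethasone libraries than in any vehicle library (mean difference -0.05). The margin was too small to show at 2 decimals: dexamethasone replicate 3 and vehicle replicates 1 and 3 were all at -4.30. Clu, Hspb1 and Cat stayed separate in the higher direction, and the other genes overlapped. The direction for Gsta4 depends on the choice of Krt12. Krt5, another epithelial keratin gene, fell by 0.23 (SE 0.05, adjusted p = 0.0113, limma), more than the unscaled 0.06 of Gsta4. Relative to Krt5, the mean of Gsta4 was thus higher after dexamethasone. Of the 15 epithelial markers, all tested and none at 0, 4 rose (Ehf, Elf3, Klf5 and Upk1b) and 1 fell (Krt5). Over all tested rows 9.04% were called higher and 6.03% lower. Summed over them, the log2 level was 20.51 to 20.62 after dexamethasone and 20.59 to 20.63 after vehicle, with dexamethasone replicates 1 and 4 lowest. The part of the epithelial share in these values was not tested.

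Aldh1a1 (Entrez 11668; chromosome 19, 20676451 to 20717952, plus strand) encodes a retinaldehyde and lipid aldehyde dehydrogenase. Its values were 13.41, 13.50, 13.51 and 13.53 after dexamethasone, against 13.31, 13.45, 13.22 and 13.36 after vehicle. The dexamethasone values were above all vehicle values but for replicate 1, which lay below vehicle replicate 2. The difference of 0.15 (SE 0.05, 95% interval 0.05 to 0.25) missed the threshold narrowly (adjusted p = 0.0506, limma). It passed in 6 of 19 alternatives, among them those without dexamethasone replicate 1 (adjusted p = 0.0371, limma), without vehicle replicate 2 (0.0174) and without both libraries that stood apart (0.0332), and its adjusted p reached 0.187 under quantile normalization.

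Aldh1a7 (chromosome 19, 20767443 to 20802052, minus strand) is a rodent copy of Aldh1a1 that lies next to it on the opposite strand. It rose by 0.43 (SE 0.07, adjusted p = 0.00160, limma), with 8.83, 8.98, 9.05 and 9.06 in the dexamethasone libraries, against 8.53, 8.65, 8.36 and 8.66 in the vehicle libraries. In both genes dexamethasone replicate 1 was the lowest of its group and vehicle replicate 3 the lowest of all. Within a library, without scaling by length, the log2 value of Aldh1a1 exceeded that of Aldh1a7 by 4.46 to 4.58 after dexamethasone and by 4.70 to 4.86 after vehicle. The coding sequences of both copies are 92% identical over 1504 aligned bases, and the longest identical run is 100 bases, longer than a 75 bp read. In the last 120 coding bases of each copy, to the stop codon, every identical stretch is shorter than a 75 bp read. The run of 100 bases thus lies elsewhere in the coding sequence. These last bases are shown with the 10 differing bases in capitals.
Aldh1a1: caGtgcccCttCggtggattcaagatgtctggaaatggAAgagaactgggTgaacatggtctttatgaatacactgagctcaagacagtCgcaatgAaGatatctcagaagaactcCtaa
Aldh1a7: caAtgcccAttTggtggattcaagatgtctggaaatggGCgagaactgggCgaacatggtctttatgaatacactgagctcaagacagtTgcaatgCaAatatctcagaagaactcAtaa
How reads that match both copies were counted is not given in the sources used here, so the split of reads between them is uncertain, and the value of Aldh1a7 most of all because it is the lower one. The other crystallin enzymes have more distant relatives: Aldh3a1 and Aldh3a2 share 70% of aligned coding bases, Tkt and Tktl1 68.2%, and Gsta4 and Gsta3 70.2%, with no identical run longer than 20 bases.

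**Figure D3:**
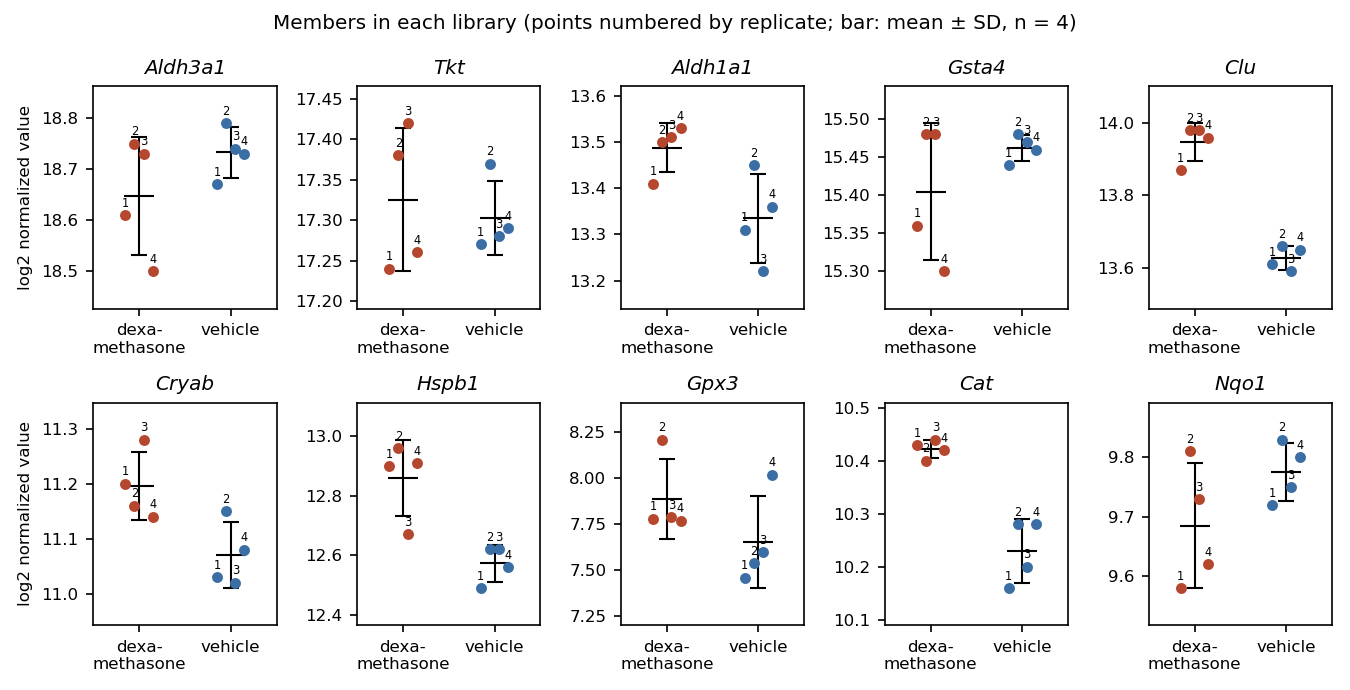
Log2 normalized value (vertical axis, a separate scale for each gene) of the 10 genes in the 4 dexamethasone libraries (red) and the 4 vehicle libraries (blue), each point numbered by replicate, with the mean and SD of the group in black. The groups are separate for Clu, Hspb1 and Cat; for Gpx3, dexamethasone replicate 2 and vehicle replicate 4 stand above the rest.

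Clu (Entrez 12759; chromosome 14, 66587320 to 66600385, plus strand) encodes clusterin, a secreted chaperone that is abundant on mucosal surfaces and keeps unfolded proteins in solution. Its log2 values were 13.87, 13.98, 13.98 and 13.96 in the dexamethasone libraries, against 13.61, 13.66, 13.59 and 13.65 in the vehicle libraries. The lowest dexamethasone library stood 0.22 above the highest vehicle library. Clu rose 1.25-fold (95% interval 1.19 to 1.32), or 0.33 on the log2 scale (SE 0.03, adjusted p = 7.5e-05, limma). The call was kept in all 19 alternatives, with log2 fold changes of 0.30 to 0.35. Among the 1330 rows called higher, 84.1% had a smaller difference.

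Hspb1 (Entrez 15507; chromosome 5, 136363789 to 136365433, plus strand) encodes the small heat shock protein HSP25, the mouse form of HSP27, which binds unfolding proteins and actin. It had 12.90, 12.96, 12.67 and 12.91 after dexamethasone, against 12.49, 12.62, 12.62 and 12.56 after vehicle. Dexamethasone replicate 3 was low for its group and only 0.05 above the highest vehicle library. Hspb1 rose 1.22-fold (95% interval 1.12 to 1.33), or 0.29 on the log2 scale (SE 0.06, adjusted p = 0.00544, limma). The call was kept in all 19 alternatives, with log2 fold changes of 0.25 to 0.35 and adjusted p up to 0.0209. Of the rows called higher, 79.6% had a smaller difference.

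Cryab (Entrez 12955; chromosome 9, 50560863 to 50564738, plus strand) encodes alpha-B crystallin, the small heat shock protein of lens, heart and many epithelia. Its values were 11.20, 11.16, 11.28 and 11.14 after dexamethasone, against 11.03, 11.15, 11.02 and 11.08 after vehicle. The groups met at their edges: 3 dexamethasone libraries were above all vehicle libraries and replicate 4 was just below vehicle replicate 2. The difference of 0.12 (SE 0.04, 95% interval 0.04 to 0.21) missed the threshold (adjusted p = 0.0535, limma). It passed without vehicle replicate 2 (adjusted p = 0.0338, limma), with robust moderation (0.0431) and with a term for the low rows of each library (0.0354), and its adjusted p was at most 0.137.

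Cryab is also a gene of the lens, and lens markers were present in all libraries. Of the 25 lens markers 17 were tested, and 0 rose and 5 fell (Bfsp2, Crygb, Crygc, Crygd and Lgsn), beside 9.04% higher and 6.03% lower over all tested rows. Without adjustment (limma) 0 were higher and 7 lower, and none was listed at 0 in all libraries. Their summed log2 level was 10.03 to 10.77 after dexamethasone and 10.42 to 10.66 after vehicle. Cryaa, the partner of Cryab in the lens, was 7.17 to 8.78 after dexamethasone and 7.63 to 8.14 after vehicle, and the log2 value of Cryab, not scaled by length, exceeded it by 2.42 to 3.99 after dexamethasone and by 2.89 to 3.46 after vehicle. Dexamethasone replicate 2 had the lowest Cryaa value of all libraries, 7.17, and a Cryab value of 11.16. Dexamethasone replicate 1 had the highest Cryaa value, 8.78, and a Cryab value of 11.20. The part of lens RNA in the Cryab values was not tested. Hspb2, a small heat shock protein gene on the other strand with 403 bases between its start and that of Cryab, was 4.74 ± 0.03 after dexamethasone and 4.73 ± 0.04 after vehicle (SD, n = 4 each).

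A promoter entry in the RefSeq table (GRCm38.p6; 250 bases before to 50 bases after the start) was matched for 6 of the 10 genes: Cat, Hspb1, Nqo1, Gpx3, Tkt and Aldh1a1. The promoters of Hspb1 and Cat are shown because these genes were called. That of Hspb1 (chr5:135887669-135887968, plus strand) reads as follows, with matches to the heat shock motif in capitals.
Hspb1: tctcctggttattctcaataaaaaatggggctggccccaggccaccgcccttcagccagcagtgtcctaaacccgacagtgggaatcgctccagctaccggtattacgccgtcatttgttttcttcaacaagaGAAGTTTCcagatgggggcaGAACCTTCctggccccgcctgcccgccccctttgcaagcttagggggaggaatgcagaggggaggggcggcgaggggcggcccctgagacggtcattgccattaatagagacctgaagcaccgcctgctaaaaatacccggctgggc
That of Cat (chr2:103485104-103485403, minus strand) has CCAAT boxes on either strand in capitals.
Cat: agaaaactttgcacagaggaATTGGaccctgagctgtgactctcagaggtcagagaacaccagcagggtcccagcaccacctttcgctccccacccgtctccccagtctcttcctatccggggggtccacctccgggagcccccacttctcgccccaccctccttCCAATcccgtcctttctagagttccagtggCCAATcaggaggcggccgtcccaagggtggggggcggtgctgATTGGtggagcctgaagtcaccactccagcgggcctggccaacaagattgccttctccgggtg
The motifs searched on both strands were ACANNNTGT (the core of the glucocorticoid response element), the full glucocorticoid response element, which is this core with GN before and NC after it, GAANNTTC and TTCNNGAA (heat shock element, in both orientations of its repeats), TGACNNNGC (antioxidant response element) and CCAAT. The Hspb1 promoter held GAANNTTC at positions -117 to -110 and -97 to -90 from the start and none of the others. The Cat promoter held CCAAT at 4 places, of which those at -85 to -81 and -55 to -51 read forward, and none of the others. CCAAT was also found in the promoters of Gpx3 and Aldh1a1, and none of these motifs in those of Tkt and Nqo1. Of all 32851 promoters in the table, 7.86% held GAANNTTC, 8.52% TTCNNGAA, 37.4% CCAAT, 12.4% TGACNNNGC, 6.85% ACANNNTGT and 0.475% the full glucocorticoid response element. The CCAAT box was added after the sequences had been seen, and a match describes letters, not a bound site.

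Among the antioxidant enzymes, Cat (Entrez 12359; chromosome 2, 103294006 to 103325317, minus strand) encodes catalase, the peroxisomal enzyme that splits hydrogen peroxide. Its log2 values were 10.43, 10.40, 10.44 and 10.42 in the dexamethasone libraries, against 10.16, 10.28, 10.20 and 10.28 in the vehicle libraries. The dexamethasone values were tightly grouped (SD 0.02) and the lowest lay 0.12 above the highest vehicle value. Cat rose 1.14-fold, or 0.19 on the log2 scale (SE 0.03, 95% interval 0.12 to 0.27, adjusted p = 0.00273, limma), and kept its call in all 19 alternatives, with log2 fold changes of 0.17 to 0.21. Of the rows called higher, 56.0% had a smaller difference.

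Gpx3 (Entrez 14778; chromosome 11, 54715955 to 54723879, plus strand) encodes the secreted glutathione peroxidase. Its values were 7.78, 8.21, 7.79 and 7.77 after dexamethasone, against 7.46, 7.54, 7.60 and 8.02 after vehicle. It was the most variable of the 10 genes: 98.6% of the 3550 rows of like level had a smaller SD within groups. Dexamethasone replicate 2 and vehicle replicate 4 stood 0.43 and 0.49 above the mean of the other libraries of their groups. The difference of 0.23 (SE 0.12, 95% interval -0.04 to 0.50) did not pass (adjusted p = 0.238, limma); without vehicle replicate 4 it was 0.35 (adjusted p = 0.0491, limma), and without dexamethasone replicate 2 it was 0.12 (0.497). Of the 11 conjunctival markers 6 were tested, 0 rose and 0 fell (limma; 1 lower without adjustment), beside 9.04% higher and 6.03% lower over all tested rows. None of these markers was at 0 in all libraries. Their summed log2 level was 15.69 in dexamethasone replicate 2 and 15.42 to 15.45 in the other dexamethasone libraries, and 15.49 in vehicle replicate 4 and 15.34 to 15.51 in the other vehicle libraries. The part of conjunctival tissue in the Gpx3 values was not tested.

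Nqo1 (Entrez 18104; chromosome 8, 109912125 to 109927106, minus strand) encodes the quinone reductase that is a standard target of NRF2, the transcription factor of the antioxidant response. It had 9.58, 9.81, 9.73 and 9.62 after dexamethasone, against 9.72, 9.83, 9.75 and 9.80 after vehicle. Dexamethasone replicates 1 and 4 were again the lowest of all libraries, as for Aldh3a1 and Gsta4. The difference of -0.09 (SE 0.05, 95% interval -0.20 to 0.02) did not pass (adjusted p = 0.240, limma), and it was negative in all 19 alternatives with no call.

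**Figure D4:**
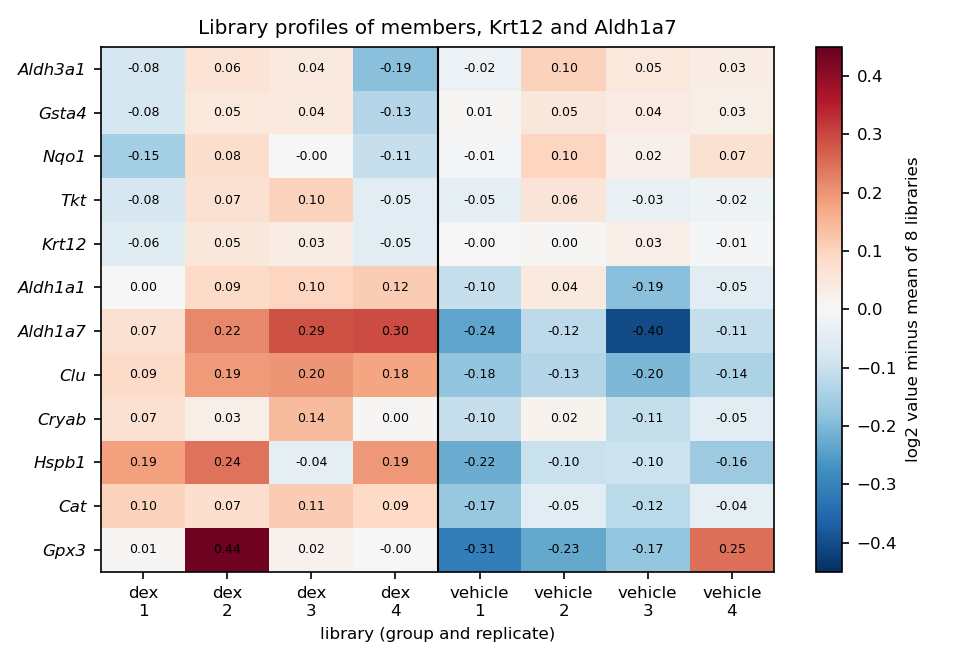
Log2 value of each gene in each library minus its mean over the 8 libraries (colour and printed number), for the 10 genes, the epithelial keratin gene Krt12 and the copy Aldh1a7; dexamethasone libraries are left of the line and vehicle libraries right of it. Aldh3a1, Gsta4, Nqo1, Tkt and Krt12 are low together in dexamethasone replicates 1 and 4, Clu, Hspb1 and Cat are higher after dexamethasone, and Gpx3 is high in dexamethasone replicate 2 and vehicle replicate 4.

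The rows whose profile over the 8 libraries was nearest to each called gene were found as those with the smallest root mean square difference after subtracting each row's mean, among 12986 rows with a mean of at least 5. For Clu these were Sgpp1 (0.02), Smim14 (0.02) and Itgb5 (0.02). For Cat they were Cav1 (0.02), Dyrk1b (0.03) and Mmp2 (0.03). For Hspb1 they were Sult5a1 (0.07), Npy1r (0.07) and Gm12888 (0.07), less close than those of the other called genes. The choice by likeness over the 8 libraries fixes the direction of these rows, so their differences of 0.16 to 0.31 are no further evidence.

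The pathways around these genes were described with 7 lists, which share some genes. Of their 148 distinct tested genes, 16.2% were called, with 11.5% higher and 4.73% lower, close to the 15.1%, 9.04% and 6.03% of all tested rows. Of 17 tested aldehyde dehydrogenase genes other than Aldh3a1 and Aldh1a1, 2 rose and 0 fell (limma; 3 lower without adjustment), with a median of -0.03, and 1 fell on leaving out dexamethasone replicate 1 or 3, without both libraries that stood apart and with library weights. The largest difference in this list was that of Aldh18a1, -0.63 (SE 0.21), which did not pass (adjusted p = 0.071, limma). The risers were Aldh1a7 and Aldh6a1, a mitochondrial enzyme of valine breakdown (0.14, SE 0.04, adjusted p = 0.0474, limma). The call of Aldh6a1 was lost without any 1 of 7 libraries, all but vehicle replicate 2 (adjusted p of 0.0557 to 0.116, limma). Of 7 tested pentose phosphate genes other than Tkt, 2 rose and 0 fell (limma; 0 lower without adjustment), with a median of 0.01. H6pd, the glucose 6-phosphate dehydrogenase of the endoplasmic reticulum, rose by 0.44 (SE 0.04, adjusted p = 4.8e-05, limma). G6pdx, the cytosolic enzyme that starts the pathway and supplies NADPH, rose by 0.10 (SE 0.03, adjusted p = 0.0449, limma), a call lost without any 1 of the 7 libraries other than vehicle replicate 2 (0.0508 to 0.114).

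Of 33 tested glutathione genes other than Gsta4 and Gpx3, 2 rose and 1 fell (limma; 3 higher and 1 lower without adjustment). These counts stand beside 9.04% higher and 6.03% lower over all tested rows, and the list median was -0.01. Mgst1, a membrane-bound glutathione transferase, rose by 0.27 (SE 0.04), and Gclc, the catalytic subunit of the rate-limiting enzyme of glutathione synthesis, rose by 0.14 (SE 0.04, adjusted p = 0.0467, limma). Hpgds, a sigma-class transferase that makes prostaglandin D2, fell by 0.16 (SE 0.04). Leaving out 1 of dexamethasone replicates 3 and 4, or any 1 vehicle library, ended the call of Gclc (limma, adjusted p between 0.0658 and 0.108). Gsto1, an omega-class transferase gene, was 17.86 ± 0.10 after dexamethasone and 17.79 ± 0.01 after vehicle (SD, n = 4 each) and did not pass.

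Of 27 tested genes of peroxide, superoxide and thioredoxin enzymes other than Cat, 3 rose and 2 fell (limma; 6 higher and 8 lower without adjustment). The background over all tested rows was 9.04% higher and 6.03% lower, and the list median was -0.02. Txnip, the thioredoxin-binding protein that also limits glucose uptake, had the largest difference, 0.78 (SE 0.06, adjusted p = 1.8e-05, limma), with 14.88, 15.07, 15.24 and 15.06 in the dexamethasone libraries, against 14.34, 14.32, 14.24 and 14.24 in the vehicle libraries. Sesn1, a sestrin, rose by 0.48 (SE 0.06), and Sepp1, which encodes the selenium carrier selenoprotein P, by 0.21 (SE 0.03). Txnrd3, a thioredoxin reductase, fell by 0.31 (SE 0.05) and Glrx, glutaredoxin, by 0.21 (SE 0.05). The superoxide dismutase genes Sod1 and Sod2 had differences of -0.09 and 0.02 and did not pass.

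In the NRF2 pathway list 6 of 29 tested genes other than Nqo1 rose and 0 fell (limma; 6 higher and 1 lower without adjustment), beside 9.04% higher and 6.03% lower over all tested rows, with a median of 0.004. The risers were Ugdh (0.26), which makes UDP-glucuronate, Mafk (0.15), a small MAF partner of NRF2, Gclc, Nqo2 (0.12), Fth1 (0.11), the ferritin heavy chain, and G6pdx; 2 of these also stand in lists above. The number that rose was 2 on leaving out vehicle replicate 1 or 4, and 3 on leaving out any 1 of dexamethasone replicates 2 to 4, with no filter or under quantile normalization. Nqo2 lost its call on leaving out any library but dexamethasone replicate 1 (limma, adjusted p between 0.0660 and 0.101). Fth1 lost it on leaving out dexamethasone replicate 2 or vehicle replicate 1 or 4 (between 0.0513 and 0.0586), and under quantile normalization (0.771). Nfe2l2, the gene of NRF2, had a difference of -0.02, its inhibitor Keap1 -0.01, and the classical targets Hmox1, Txnrd1, Srxn1 and Gclm 0.02, -0.02, -0.03 and -0.04; none of these passed.

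Of 29 tested small heat shock protein and chaperone genes other than Cryab and Hspb1, 2 rose and 2 fell (limma; 2 higher and 5 lower without adjustment). Among all tested rows 9.04% were higher and 6.03% lower, and the list median was -0.02. The number that fell was 5 under quantile normalization and without both libraries that stood apart, 4 on leaving out dexamethasone replicate 1, 0 on leaving out dexamethasone replicate 2 or 3 or vehicle replicate 2, and 1 on leaving out any other library. Hspb8, a small heat shock protein, rose by 0.26 (SE 0.05) and Bag3, its co-chaperone, by 0.14 (SE 0.03). Hspa5, the chaperone of the endoplasmic reticulum, fell by 0.14 (SE 0.04) and Chordc1, an HSP90 co-chaperone, by 0.12 (SE 0.03). Leaving out any 1 of replicates 2 to 4 of either group ended the call of Hspa5 (limma, adjusted p between 0.0670 and 0.0970), and leaving out any 1 of replicates 1 to 3 of either group that of Chordc1 (between 0.0588 and 0.0763). The inducible HSP70 genes Hspa1a and Hspa1b had differences of 0.07 and -0.01, Hsph1 had -0.04 and the heat shock factor gene Hsf1 -0.004, and none passed.

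The last list held abundant enzymes and structural proteins, several of which serve as crystallins in other tissues or animals. Of 15 tested members 2 rose and 2 fell (limma; 3 higher and 3 lower without adjustment), with a median of -0.07. For all tested rows the shares were 9.04% higher and 6.03% lower. Glul, glutamine synthetase, rose by 0.40 (SE 0.04, adjusted p = 8.3e-05, limma) and Gpi1, glucose 6-phosphate isomerase, by 0.15 (SE 0.04). The glycolytic genes Tpi1 and Ldha fell by 0.21 (SE 0.06) and 0.20 (SE 0.05). Gpi1 lost its call on leaving out vehicle replicate 1 or 4 (limma, adjusted p of 0.0511 and 0.0560), and Ldha on leaving out vehicle replicate 4 (0.0576). Tpi1 lost it on leaving out 1 of dexamethasone replicates 1 and 4 or of vehicle replicates 2 and 4 (between 0.0508 and 0.0611). Without both libraries that stood apart neither Tpi1 nor Ldha was called.

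**Figure D5:**
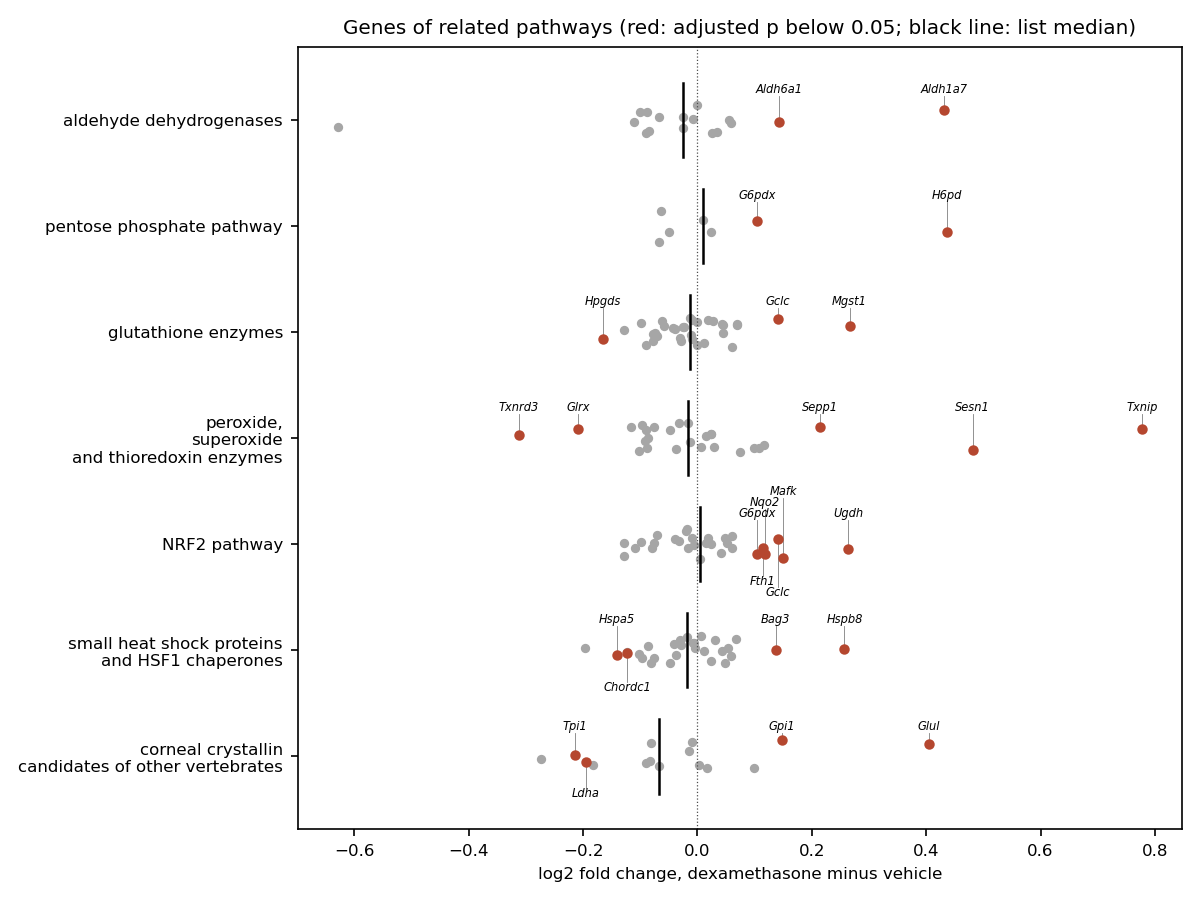
Log2 fold change, dexamethasone minus vehicle (horizontal axis), of every tested gene of the 7 pathway lists, 1 point per gene with vertical scatter for legibility only (red and named, adjusted p below 0.05; grey, not called; black line, list median). List medians lie between -0.07 and 0.01, and Txnip, Sesn1, H6pd, Aldh1a7 and Glul lie furthest to the right.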

How the data were processed

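The submitters' processing notes name the tools Bowtie2, HTSeq and DESeq2 and the build mm9, with no versions; the strand setting, the annotation and the kind of log transformation were not stated there. The authors deposited log2 normalized values for 24918 gene rows in 8 libraries; 5078 rows are 0 in all libraries. Low rows barely vary (median SD within groups 0.02 over the 812 rows whose mean is 2 to 3), as after a shrunken log transformation, so no count test was run and depth behind a value is unknown. Without a stated strand setting, overlapping genes and near copies are uncertain.

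Rows with a mean of at least 3 (14715) were fitted with limma 3.58.1 in R 4.3.3 (group term, variance trend, two-sided, Benjamini-Hochberg). The replicates are separate pools, and p-values measure the spread between pools. The labels do not say whether corneas of the same mouse entered different pools, so the independence of the pools is not known. The genes and lists were chosen with earlier results of these data known. Named genes are the 10 genes, all called list genes, the nearest profiles and a few reference genes; uncalled list genes, such as Sod1 or Hmox1, were named after their values were seen. Coordinates are from GENCODE vM1 (NCBIM37, the assembly of mm9), promoters from RefSeq (GRCm38.p6). Sums of markers are the log2 of summed linear values. Alternatives were a replicate block, no filter, a filter at 5, median centring, quantile normalization, a pseudocount of 8, no trend, robust moderation, library weights, a term for low rows (mean of 0 to 1) and leaving out libraries. The fit was tested on simulated data. Python 3.11.15, pandas 2.3.3, NumPy 2.4.6 and Biopython 1.88 were used.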

Additional observations from a re-analysis of the deposited data

Results flagged for a closer look

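Of 84 sets of 4 libraries (both groups of 42 genes: the 10 genes, the 24 called list genes, and 8 checks, namely Fkbp5, Tsc22d3, Per1, Nr3c1, Krt12, Krt5, Cryaa and Gsto1), in 2 the highest library lay further from the next one, relative to the range of the group, than Dixon's 95% critical value; chance flags about 1 in 20, or 4.2 of 84. Gpx3 was isolated and highest in dexamethasone replicate 2 (gap over range 0.954), at 8.21 against 7.77 to 7.79 in the other dexamethasone libraries. Txnrd3 was isolated and highest in vehicle replicate 3 (0.849), at 8.98 against 8.79 to 8.81 in the other vehicle libraries.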

How the results depend on the processing

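Clu, Hspb1 and Cat kept direction and call in all 19 alternatives, and Gsta4 and Nqo1 kept their direction without a call. The number of the 10 genes that rose was 5 with robust moderation and 3 to 5 on leaving out 1 library, and 0 fell throughout. Rows called over all genes were 1411 to 2131 and rows lower 493 to 829 on leaving out 1 library, lowest without vehicle replicate 4, against 2218 and 888 with all libraries. Some differences turned sign without passing the test: under quantile normalization Aldh3a1 was 0.058 and Tkt -0.062; without both libraries that stood apart Krt12 was 0.014; and on leaving out 1 library Tkt ranged between -0.009 (without dexamethasone replicate 3) and 0.051, Krt12 between -0.029 and 0.006 (without dexamethasone replicate 1; 0.004 without dexamethasone replicate 4), and the Cryaa log2 fold change between -0.345 and 0.193 (without dexamethasone replicate 2; 0.002 and 0.041 without dexamethasone replicate 4 and vehicle replicate 1). The cause was not tested. With the replicate block, 3 of the 10 genes and 1675 rows were called. The numbers pair no samples by the labels, and same-numbered libraries deviated from their group means with correlations of -0.31 to 0.19, so a call lost under the block says nothing of its size. Of 24 called list genes 14 kept their call in all 19 alternatives. Library depth is unknown, and shrinkage limits low genes most.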
